A study of Mus musculus with 6 samples.

Results

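The genes described here encode 10 heat shock chaperones and co-chaperones of the Hsp70, Hsp40, Hsp90 and Hsp60 systems: Hspa1a, Hspa1b, Hspa8, Hsph1, Dnajb1, Dnajb4, Hsp90aa1, Bag3, Hspd1 and Hspe1. They were chosen by name, with earlier results of these data known. Every probe set of the table whose annotated gene symbols all lay among these names was taken, which gave 24 of the 45037 probe sets that are not array controls, and 10 of the 18193 genes that have a probe set of their own. The arrays measured ocular lenses of mouse embryos at E19.5, bred on a mix of C57BL/6 and FVB/N. One group held 3 wild type littermates in which Notch2 was not ablated in the lens, and the other held 3 Notch2 mutants, in which the receptor gene was conditionally removed from the lens. Both lenses of an embryo were pooled for its array, and each array stands for another embryo as a biological replicate. The sources used here do not name the driver of the ablation or the cells in which it acts.

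Heat shock proteins keep other proteins soluble and folded. Hsp70 proteins bind unfolded stretches in a cycle driven by ATP, Hsp40 proteins carry a J domain that delivers clients and starts the ATP hydrolysis, and exchange factors such as Hsph1 and Bag3 reset the cycle. Hsp90 completes the folding of kinases and receptors, and the Hsp60 and Hsp10 chaperonins, encoded by Hspd1 and Hspe1, fold proteins in mitochondria. The genes are classical targets of the heat shock factors, which bind inverted repeats of the unit NGAAN. Lens fibre cells lose their nuclei and cannot replace their proteins, so chaperones are well known there, and the factor Hsf4 is required in the lens.

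The promoters of the genes the results turn on are shown for these repeats. Of the 10 genes, 8 had entries in the RefSeq promoter table of assembly GRCm38.p6, with 12 windows of 300 bases, running from 250 bases before a transcription start to 50 after it. Hspa8 and Hsp90aa1 had no entry. The following patterns were searched on both strands: the pairs GAANNTTC and TTCNNGAA, each its own reverse complement, and a run of 3 alternating units, which contains a pair of each kind. The TATA box, TATAAA, and the CCAAT box were searched as well. The letters in capitals below mark these pairs and the CCAAT box or its reverse complement ATTGG, and all sequences run 5′ to 3′ on the strand of the gene. Only the 250 bases before the start are printed for Dnajb1 (the first of its 2 starts) and Dnajb4 (the second of its 2), the genes with a probe set that rose, and for Hspa1a.
Dnajb1, chr8:83607925-83608174, plus strand: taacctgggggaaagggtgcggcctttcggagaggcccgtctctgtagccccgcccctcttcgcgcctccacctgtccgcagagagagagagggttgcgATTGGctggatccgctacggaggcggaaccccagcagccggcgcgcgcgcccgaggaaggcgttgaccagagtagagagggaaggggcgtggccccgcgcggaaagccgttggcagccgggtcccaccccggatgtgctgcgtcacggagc
Dnajb4, chr3:152193846-152194095, minus strand: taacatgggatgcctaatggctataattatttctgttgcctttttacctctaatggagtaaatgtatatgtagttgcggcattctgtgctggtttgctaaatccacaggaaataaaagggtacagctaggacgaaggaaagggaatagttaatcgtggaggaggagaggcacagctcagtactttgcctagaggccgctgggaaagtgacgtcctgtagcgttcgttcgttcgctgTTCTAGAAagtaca
Hspa1a, chr17:34972157-34972406, minus strand: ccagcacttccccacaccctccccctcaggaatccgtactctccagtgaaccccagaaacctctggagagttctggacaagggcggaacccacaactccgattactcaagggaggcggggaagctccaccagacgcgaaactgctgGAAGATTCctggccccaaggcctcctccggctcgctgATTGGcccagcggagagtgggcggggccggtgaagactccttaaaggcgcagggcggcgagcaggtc

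Dnajb1 held none of the pairs in either window, and its first window held ATTGG at -151 and again at 12 bases from the start. Dnajb4 held TTCTAGAA at -14, next to its second start, and no pair at its first. Hspa1a held GAAGATTC at -104 and ATTGG at -67. The Hspa1b window had both at the same distances and differed from that of Hspa1a at 4 of 300 positions. Shorter stretches show the remaining arrangements, the second of them for Hsph1 and that of Bag3 lying after the start.
Hsph1, chr5:149636356-149636375, minus strand: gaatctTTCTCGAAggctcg
Hsph1, chr5:149636287-149636306, minus strand: tgcagaTTCTGGAAAGTTCt
Bag3, chr7:128523619-128523632, plus strand: ggaccaGAAGTTTC
Hspe1, chr1:55088053-55088082, plus strand: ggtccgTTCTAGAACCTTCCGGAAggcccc

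The Hspe1 stretch joins 2 overlapping runs of 3 units. It lies between divergent starts, that of Hspe1 on the plus strand and the second of Hspd1 on the minus strand. The same bases read on the other strand stood in the window of that second Hspd1 start. The first Hspd1 start lies downstream of the Hspe1 start, so those starts are not divergent. In all, 7 of the 8 genes and 8 of the 12 windows held a pair of either kind, against 15.1% of all 32851 windows. A run of 3 units stood in 4 member windows (both of Hsph1, which overlap and share it, 1 of Hspd1 and that of Hspe1) and in 0.603% of all windows. The CCAAT box stood in 6 of the 12 and in 37.4% of all, while TATAAA stood in 0 of the 12 and in 13.6% of all. A match describes the letters of these windows and says nothing of binding.

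**Figure D1:**
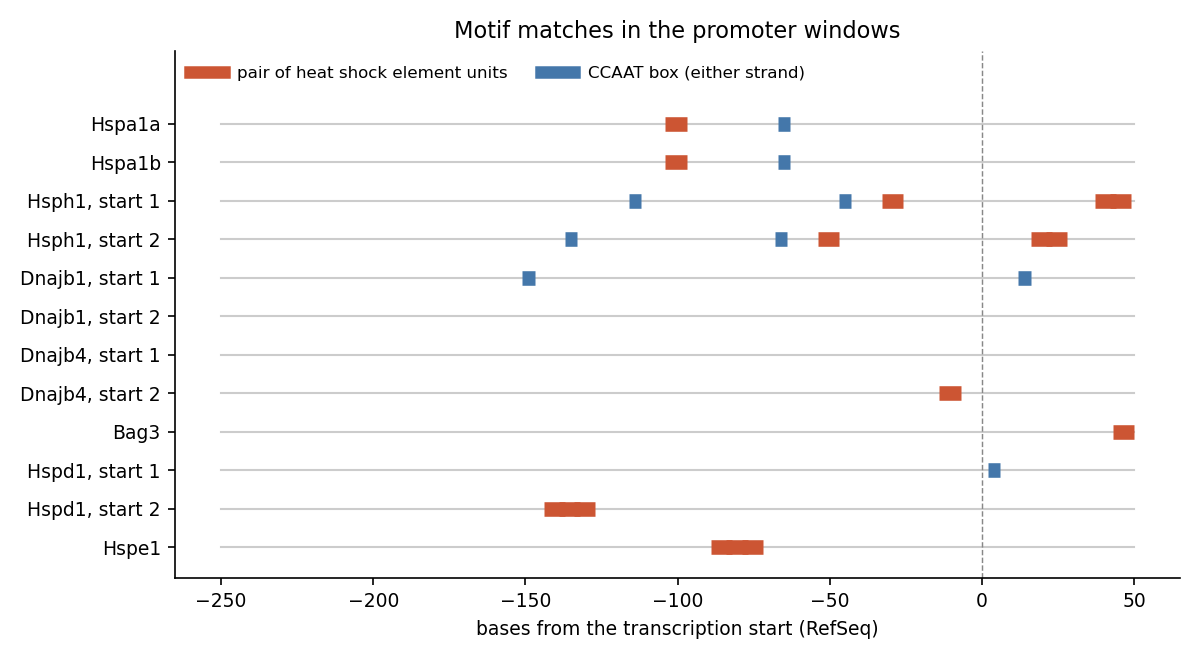
Each line is a promoter window, from 250 bases before the transcription start (dashed line, at 0) to 50 after it, for the 8 genes with an entry. Blocks mark pairs of heat shock element units and CCAAT boxes. The runs of Hspe1 and of the second Hspd1 start are the same bases read on opposite strands, and both Dnajb1 windows are without a pair.

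The deposited values carry no level. Within a probe set the 6 values have a median of 0, so the 2 middle ones lie equally far from it, and neither the abundance of a chaperone nor the presence of lens markers can be read. Values are listed with replicate 1 first, then 2, then 3. They are taken as log2, the usual output of RMA, although no source used here states the base. A difference is the mutant mean less the control mean on that scale, with its standard error (SE), from limma's moderated linear model with n = 3 per group. The adjusted p is Benjamini-Hochberg over all 45037 probe sets, and a probe set is said to have risen or fallen where it is below 0.05. The targeted gene, Notch2, had 2 probe sets, at 0.49 (SE 0.45, limma adjusted p = 0.752) and -0.42 (SE 0.21, limma adjusted p = 0.514), with overlapping groups in both. Values of all 6 arrays had standard deviations over the probe sets of 0.223 to 0.384, the highest in wild type 3. The 9 hybridisation controls, which the array maker's protocol adds to each sample, read low in wild type 1, wild type 2 and mutant 1 (means of -1.56 to -1.04) and high in wild type 3, mutant 2 and mutant 3 (1.04 to 1.56). Results are therefore also given within each side of that split, with 2 wild type arrays against 1 mutant on the low side and 1 against 2 on the high side.

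In mutant lenses 2 of the 24 chaperone probe sets rose, 1 of Dnajb1 and 1 of Dnajb4, and 0 fell. Over all probe sets, 0.293% rose and 0.175% fell. The 24 lay mostly above 0: 21 had a positive difference, against 47.0% of all probe sets, and their median difference was 0.32, against -0.02 over all. At an unadjusted p below 0.05 in limma there were 9 higher and 1 lower, against 6.11% and 5.46% of all probe sets. The mutant and wild type arrays did not overlap in 13 that were higher in mutants and in 1 that was lower, where the shares over all probe sets were 8.73% and 9.10%. The 13 came from 6 genes, and probe sets of 1 gene share its transcripts, so they are not independent. In 3 mutants against 3 controls of pooled whole lenses, more cells of a kind and more RNA per cell cannot be told apart.

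The median difference of the 24 stayed between 0.26 (without mutant 1) and 0.38 (without wild type 1) with 1 array left out, and 20 to 22 of them stayed above 0. Within the low side of the hybridisation control split 22 were above 0, with a median of 0.39, and within the high side 20, with a median of 0.35. Neither of the calls was kept when any 1 of the 6 arrays was left out, as given for each gene below.

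**Figure D2:**
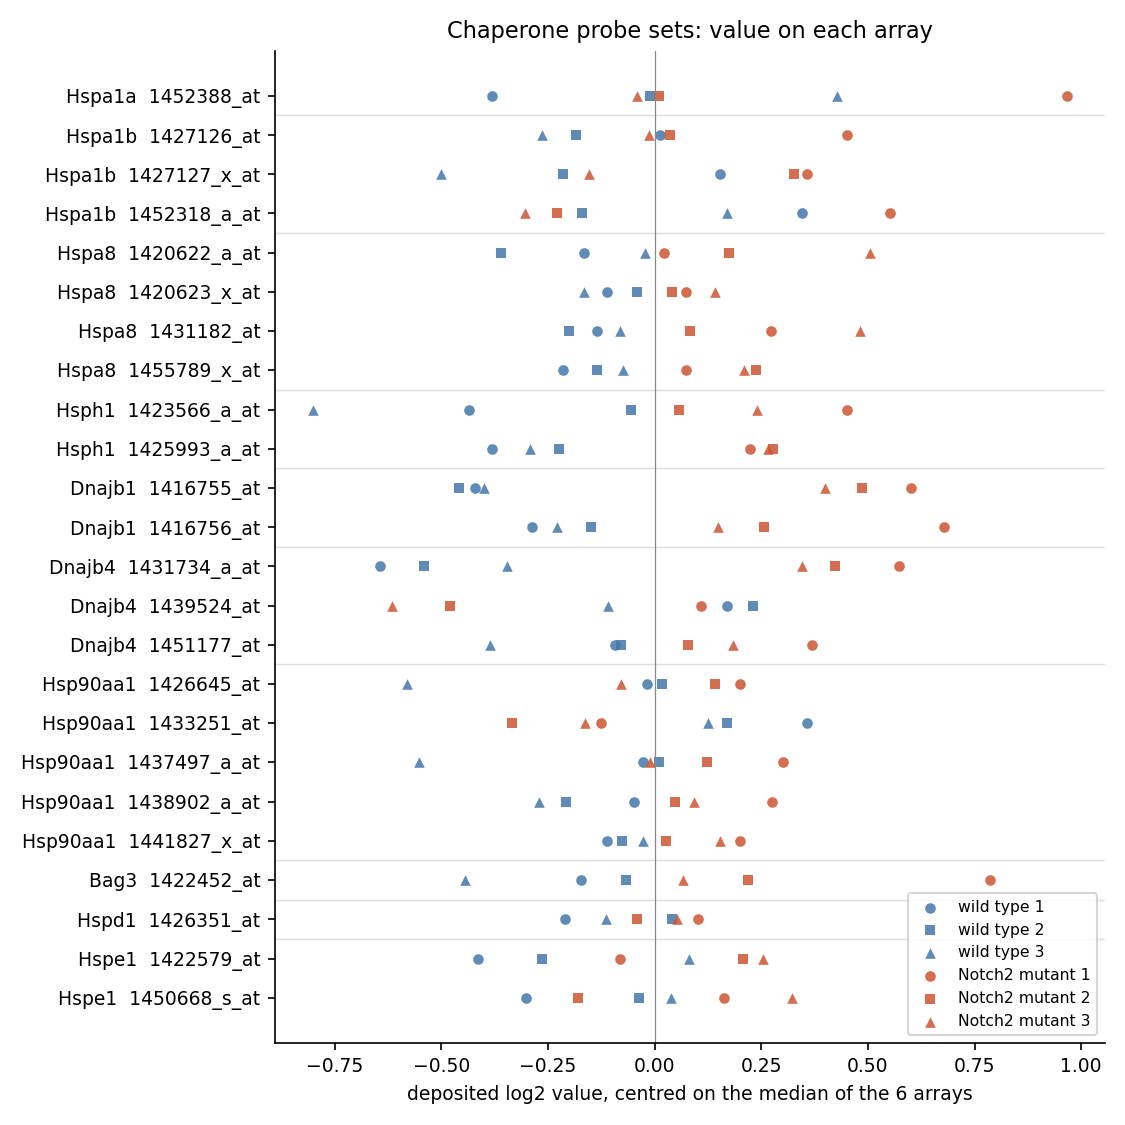
Each row is 1 of the 24 probe sets and each point an array, on the deposited log2 scale centred per probe set; colour gives the genotype and shape the replicate number. The mutant points lie to the right of all wild type points in 13 rows, among them all rows of Dnajb1, Hspa8, Hsph1 and Bag3, and mutant 1 is the farthest right of the mutants in 17.

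Both probe sets that rose belong to Hsp40 genes. Dnajb1 encodes the main J-domain partner of inducible Hsp70 in the cytosol. Its probe set 1416755_at read -0.42, -0.46 and -0.40 in the controls and 0.60, 0.49 and 0.40 in the mutants. The mutants were all high, the controls all low, and the arrays of a group lay close together (-0.43 ± 0.03 against 0.50 ± 0.10, SD, n = 3). The difference was 0.92 (SE 0.14), or 1.90-fold, with a limma adjusted p = 0.0419. It was 1.04 on the low side of the hybridisation control split and 0.84 on the high side. With 1 array left out it was 0.87 to 0.97, but limma's adjusted p rose to between 0.0721 and 0.202, so none of these fits called it.

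The second Dnajb1 probe set, 1416756_at, also separated the groups, with -0.29, -0.15 and -0.23 in the controls and 0.68, 0.26 and 0.15 in the mutants. Mutant 1 stood well above the other mutants there. The difference of 0.58 (SE 0.18, limma adjusted p = 0.220) did not pass.

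Dnajb4 encodes a J-domain protein closely related to Dnajb1. Its probe set 1431734_a_at read -0.64, -0.54 and -0.35 in the controls and 0.57, 0.42 and 0.35 in the mutants. The groups lay apart, at -0.51 ± 0.15 and 0.45 ± 0.12 (SD, n = 3). The difference of 0.96 (SE 0.16) was 1.94-fold, with a limma adjusted p = 0.0451, and was 1.16 and 0.73 on the low and the high side of the split. It kept its sign with 1 array left out (0.89 to 1.04), and limma's adjusted p was then 0.0654 to 0.216, above the threshold each time.

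The other Dnajb4 probe sets differed in sign, and neither passed. Probe set 1451177_at read -0.093, -0.078 and -0.39 in the controls and 0.37, 0.078 and 0.18 in the mutants, so its groups separated too, with a difference of 0.40 (SE 0.16, limma adjusted p = 0.390). Probe set 1439524_at read 0.17, 0.23 and -0.11 against 0.11, -0.48 and -0.62. There mutants 2 and 3 were the lowest arrays and mutant 1 lay among the controls, with a difference of -0.43 (SE 0.21, limma adjusted p = 0.503). The sources used here do not say which part of the transcript each of them covers.

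Of the Hsp70 genes, Hspa8, the constitutive cytosolic Hsc70, showed small differences in the same direction. All 4 of its probe sets had the mutants above every control, and none passed. Probe set 1431182_at read -0.14, -0.20 and -0.082 in the controls and 0.27, 0.082 and 0.48 in the mutants. Mutant 3 was the highest array there and in 1420622_a_at, which read -0.17, -0.36 and -0.022 against 0.022, 0.17 and 0.51. The 4 differences ran from 0.19 to 0.42, and the lowest limma adjusted p among them was 0.344. Mutant 1 was not the highest mutant in any Hspa8 probe set.

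The stress-inducible Hsp70 genes Hspa1a and Hspa1b did not separate the groups in any of their 4 probe sets. The Hspa1a probe set, 1452388_at, read -0.38, -0.010 and 0.43 in the controls and 0.97, 0.010 and -0.041 in the mutants. Mutant 1 was high, the other mutants lay at the middle, and the controls covered a range of both signs. The difference of 0.30 (SE 0.30, limma adjusted p = 0.774) was -0.03 without mutant 1. It was 1.16 on the low side of the hybridisation control split, where mutant 1 lies, and -0.44 on the high side.

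Hspa1b probe set 1427126_at read 0.014, -0.18 and -0.26 against 0.45, 0.035 and -0.014, and 1427127_x_at read 0.15, -0.21 and -0.50 against 0.36, 0.33 and -0.15. In both, 1 or more mutants fell within the range of the controls. Their differences were 0.30 (SE 0.18) and 0.36 (SE 0.22), while that of 1452318_a_at was -0.11 (SE 0.25), with limma adjusted p from 0.587 to 0.917. The last probe set read 0.35, -0.17 and 0.17 against 0.55, -0.23 and -0.30. Mutant 1 was the highest mutant in all 4 probe sets of the gene pair. The coding sequences of Hspa1a and Hspa1b are near-identical, so signal may be shared between them, and their values are uncertain as values of 1 gene.

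Among the exchange factors, Hsph1 encodes Hsp110, which resets Hsp70 and helps to dissolve aggregates. Its probe set 1425993_a_at read -0.38, -0.22 and -0.29 in the controls and 0.22, 0.28 and 0.27 in the mutants. The mutants were tightly grouped (0.26 ± 0.03, SD, n = 3) and above all controls. The difference was 0.55 (SE 0.14, limma adjusted p = 0.142). Probe set 1423566_a_at had a wider spread, with -0.43, -0.056 and -0.80 against 0.45, 0.056 and 0.24, and a difference of 0.68 (SE 0.21, limma adjusted p = 0.235). Both separated the groups and neither passed.

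Bag3 encodes a co-chaperone that links Hsp70 to small heat shock proteins and to selective autophagy. It had 1 probe set, which read -0.17, -0.067 and -0.44 in the controls and 0.79, 0.22 and 0.067 in the mutants. The groups did not overlap, but mutant 1 lay far above the other mutants. The difference was 0.59 (SE 0.21, limma adjusted p = 0.321), and 0.37 without mutant 1.

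Hsp90aa1, the inducible cytosolic Hsp90, had 5 probe sets with differences from -0.42 to 0.33, and none passed. In 1438902_a_at the values were -0.048, -0.21 and -0.27 in the controls and 0.27, 0.048 and 0.093 in the mutants. The mutants lay above the controls there and in 1441827_x_at, with differences of 0.31 (SE 0.15) and 0.20 (SE 0.14). Probe sets 1426645_at and 1437497_a_at overlapped, with wild type 3 the lowest array in both (-0.58 and -0.55). Probe set 1433251_at went the other way, with 0.36, 0.17 and 0.13 against -0.13, -0.34 and -0.16, and separated the groups with the controls higher. Its difference was -0.42 (SE 0.15, limma adjusted p = 0.309). In all 5 probe sets mutant 1 was the highest of the mutants.

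The mitochondrial chaperonin genes had no probe set that passed or separated the groups. Hspd1 (Hsp60) read -0.21, 0.042 and -0.11 in the controls and 0.10, -0.042 and 0.052 in the mutants. Its groups overlapped, with a difference of 0.13 (SE 0.15, limma adjusted p = 0.806, 95% interval -0.20 to 0.47). Hspe1 (Hsp10) has a start divergent to the second start of Hspd1. Its probe set 1422579_at read -0.41, -0.26 and 0.081 against -0.081, 0.21 and 0.25, with a difference of 0.33 (SE 0.18, limma adjusted p = 0.564). The other Hspe1 probe set differed by 0.20 (SE 0.18). In both, wild type 3 lay within the range of the mutants. Both genes have processed pseudogenes of like sequence, so their values are uncertain where probes match several copies.

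**Figure D3:**
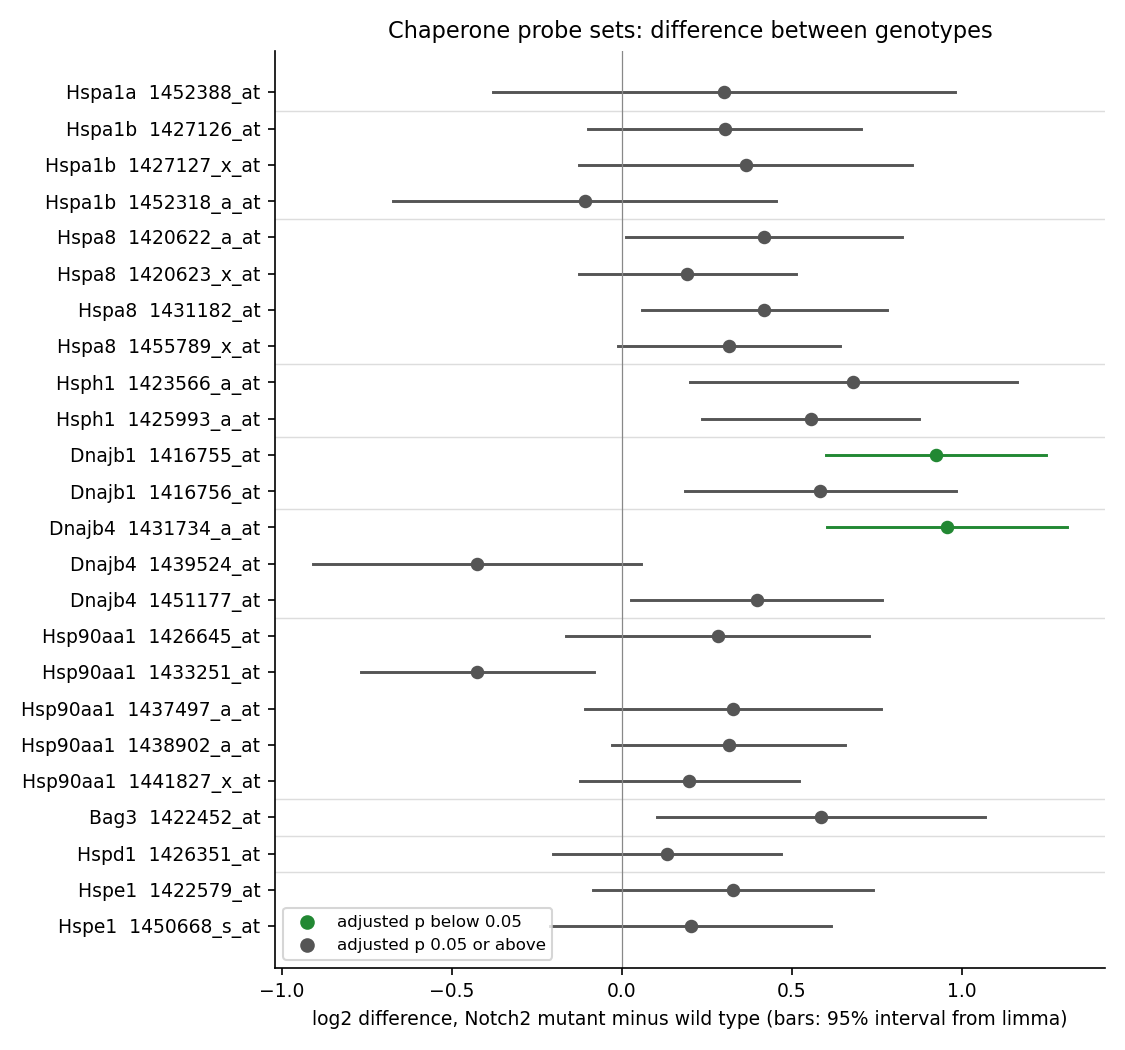
Points give the log2 difference, mutant minus wild type, of each of the 24 probe sets, and bars the 95% interval of limma's fit. Only Dnajb1 1416755_at (0.92) and Dnajb4 1431734_a_at (0.96) have an adjusted p below 0.05, while 1 probe set each of Dnajb4, Hsp90aa1 and Hspa1b lies below 0.

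The probe sets differed in which mutant array was highest. Mutant 1 was the highest of the 3 mutants in 17 of the 24 (70.8%), against 32.4% of all probe sets, and these took in every probe set of Hspa1a, Hspa1b, Dnajb1, Dnajb4, Hsp90aa1, Bag3 and Hspd1. Mutant 3 was highest in 5 and mutant 2 in 2. Per array, the mean over the 24 was -0.15, -0.13 and -0.20 in the controls and 0.32, 0.08 and 0.10 in the mutants. All mutant means lay above all wild type means, with mutant 1 farthest from them.

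The wider chaperone network was followed in 9 lists of other genes, with 93 genes and 234 probe sets measured. Of these, 3 genes rose and 1 fell, and the median difference over the probe sets was 0.02. Counted as probe sets, 3 of the small heat shock protein list and 1 of the other Hsp40 list rose. In the other Hsp40 list 2 fell. Over all probe sets, 0.293% rose and 0.175% fell. Of the 234, groups did not overlap in 26 higher and 30 lower in mutants. The shares over all probe sets were 8.73% and 9.10%. The lists leaned in different directions, as given below for the Hsp70, Hsp40 and small heat shock protein lists. The other Hsp70 family members (11 genes, 34 probe sets) had a median of 0.09 and none passed. They too lay more often above 0, in 24 of the 34, against 47.0% of all probe sets. Their groups did not overlap in 10 higher and 4 lower in mutants. The smallest p there belonged to Hspa2, a testis-enriched Hsp70 (0.59, SE 0.15, limma adjusted p = 0.152), and to 1 probe set of Hspa4, an Hsp110 relative (-0.56, SE 0.15, limma adjusted p = 0.177). The other Hspa4 probe sets read 0.08, -0.20 and -0.01, with overlapping groups.

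The other Hsp40 list (27 genes, 74 probe sets) had a median of 0.02 and held 1 gene that rose and 1 that fell. Its groups did not overlap in 5 probe sets higher and 11 lower in mutants. Dnaja4, a J-domain protein of the DNAJA class, rose by 1.32 (SE 0.18, limma adjusted p = 0.0314) in probe set 1418591_at. It read -0.93, -0.74 and -0.47 in the controls and 0.78, 0.47 and 0.56 in the mutants, which did not overlap. Its other probe sets read 0.89 (SE 0.19) and 0.27 (SE 0.24). Dnajc6, which encodes auxilin, the J-domain protein that uncoats clathrin vesicles, fell in 2 probe sets, with differences of -1.49 (SE 0.20, limma adjusted p = 0.0298) and -1.05 (SE 0.16, limma adjusted p = 0.0419). A pair of further Dnajc6 probe sets read 0.33 and -0.11. With 1 array left out, limma's adjusted p was below 0.05 in 1 of 6 fits for Dnaja4 (without wild type 3), in 1 of 6 for the first Dnajc6 probe set (without mutant 3) and in 0 of 6 for the second.

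No gene passed among 11 other exchange factors and Hsp70 partners (median 0.04), 14 Hsp90 co-chaperones (0.01), 8 subunits of the cytosolic chaperonin (0.03), 8 mitochondrial proteases and import genes (-0.0048) and 2 other Hsp90 genes (0.06). The genes with the smallest p in each were Grpel2 (-0.48, SE 0.16), the co-chaperone of mitochondrial Hsp70, Fkbp4 (-0.40, SE 0.14), a partner of Hsp90 on steroid receptors, the chaperonin subunit Cct4 (0.44, SE 0.15), Timm44 (-0.70, SE 0.20), which tethers mitochondrial Hsp70 to the import channel, and Hsp90b1 (0.26, SE 0.17), the Hsp90 of the endoplasmic reticulum. The limma adjusted p of these probe sets lay between 0.198 and 0.640. Other probe sets of the same genes differed from them. They read 0.06 for Grpel2, 0.09 and -0.52 for Fkbp4, and -0.21 to 0.46 for Cct4. Those of Timm44 read -0.21 and -0.25, and that of Hsp90b1 read 0.20.

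The list of heat shock factors (4 genes, 6 probe sets, median -0.14) held Hsf2, Hsf4, Hsf5 and the factor-binding protein Hsbp1, and none passed. No probe set with a single gene symbol is annotated to Hsf1. Hsf4, the lens factor, read 0.74, -0.030 and 0.59 in the controls and -0.17, 0.030 and -0.17 in the mutants. Wild type 2 lay within the mutants, and the difference was -0.54 (SE 0.21, limma adjusted p = 0.370).

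The small heat shock proteins, which hold unfolded clients for Hsp70, had 15 probe sets of 8 genes with a median of -0.03. Groups did not overlap in 5 of these higher and 3 lower in mutants. Hspb1 rose in both of its probe sets (2.77, SE 0.17, and 2.49, SE 0.15, each with a limma adjusted p = 0.00101) and passed with any 1 array left out. Hspb8, the partner of Bag3, rose by 1.35 (SE 0.17, limma adjusted p = 0.0291) in 1 of 3 probe sets and passed in 1 of 6 such fits (without wild type 2). The lens alpha crystallins Cryaa and Cryab are counted in this list and did not pass.

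**Figure D4:**
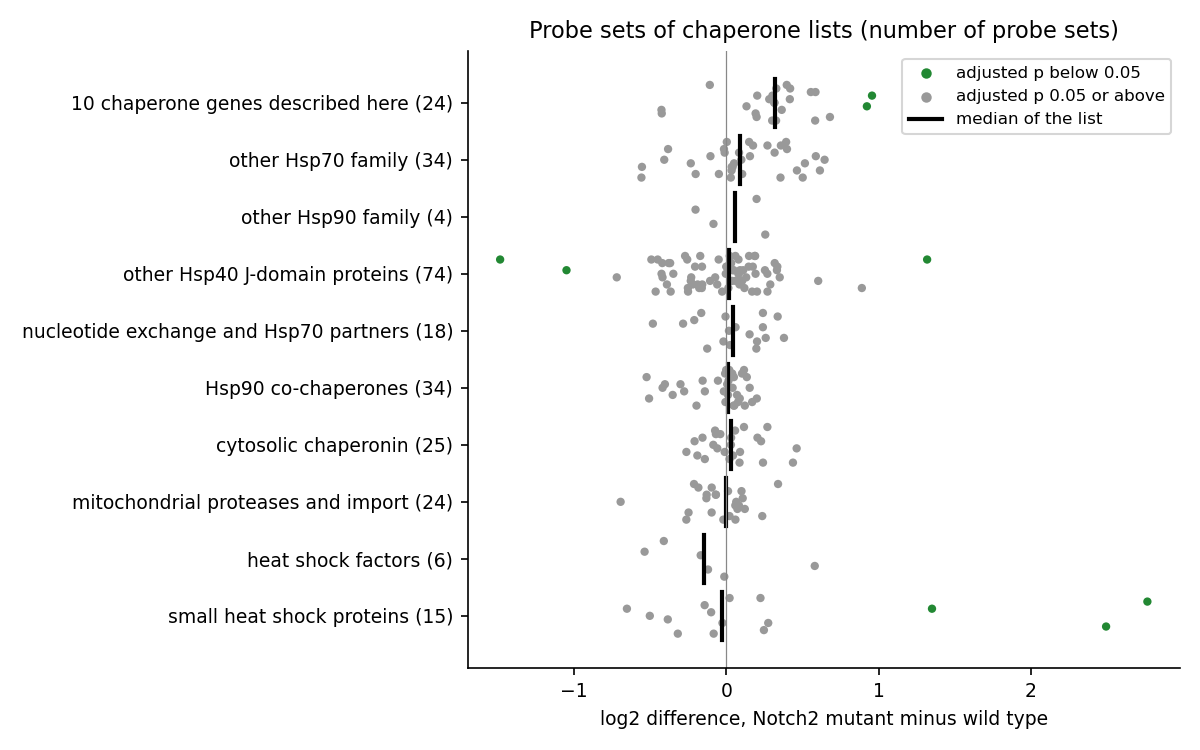
Points are probe sets at their log2 difference, mutant minus wild type, in the 10 chaperone genes and in each of the 9 other lists (vertical position within a list has no meaning), and bars are list medians. The median of the 10 genes is 0.32, those of the other lists lie between -0.14 and 0.09, and green points with an adjusted p below 0.05 stand in 3 of the 10 groups.

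Beside these values, markers of other cells differed between the same arrays. Of 20 genes of retinal neurons and their progenitors 17 were measured and 9 rose, with list means of -1.04 to -0.41 in wild type and 0.39 to 0.97 in mutants. Mutant 2 was highest for these genes, while mutant 1 was highest for the chaperones. The 10 macrophage markers had no gene that passed, with means of -0.86 to -0.01 in wild type and 0.07 to 0.59 in mutants, and the 8 endothelial markers had overlapping means. Lens fibre genes (9 of 10 measured, 1 fell) lay at 0.24 to 0.33 in wild type and -0.38 to -0.20 in mutants. Of 6 lens epithelium genes 2 fell, with list means of 0.25 to 0.43 in wild type and -0.61 to -0.25 in mutants. That list was mixed: 9 of its 21 probe sets were above 0, and groups did not overlap in 3 higher and 10 lower in mutants. Centred values do not show which of these markers are near 0 in level, and the part of other cells in the chaperone differences was not tested.

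Of 10 immediate early genes, transcription factor and signalling genes with fast responses, none passed. Their means overlapped, at 0.034, 0.012 and -0.13 in the controls and 0.23, 0.057 and -0.11 in the mutants. By this mean mutant 1 was the highest array too, and the part of these genes in its chaperone values was not tested. The genes of this list went both ways. Jun differed by -0.64 (SE 0.18, limma adjusted p = 0.175), with every mutant below every control. Fos differed by 0.55 (SE 0.29, limma adjusted p = 0.529), with overlapping groups. In these probe sets wild type 1 was highest for Jun (0.63) and mutant 2 for Fos (0.97).

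**Figure D5:**
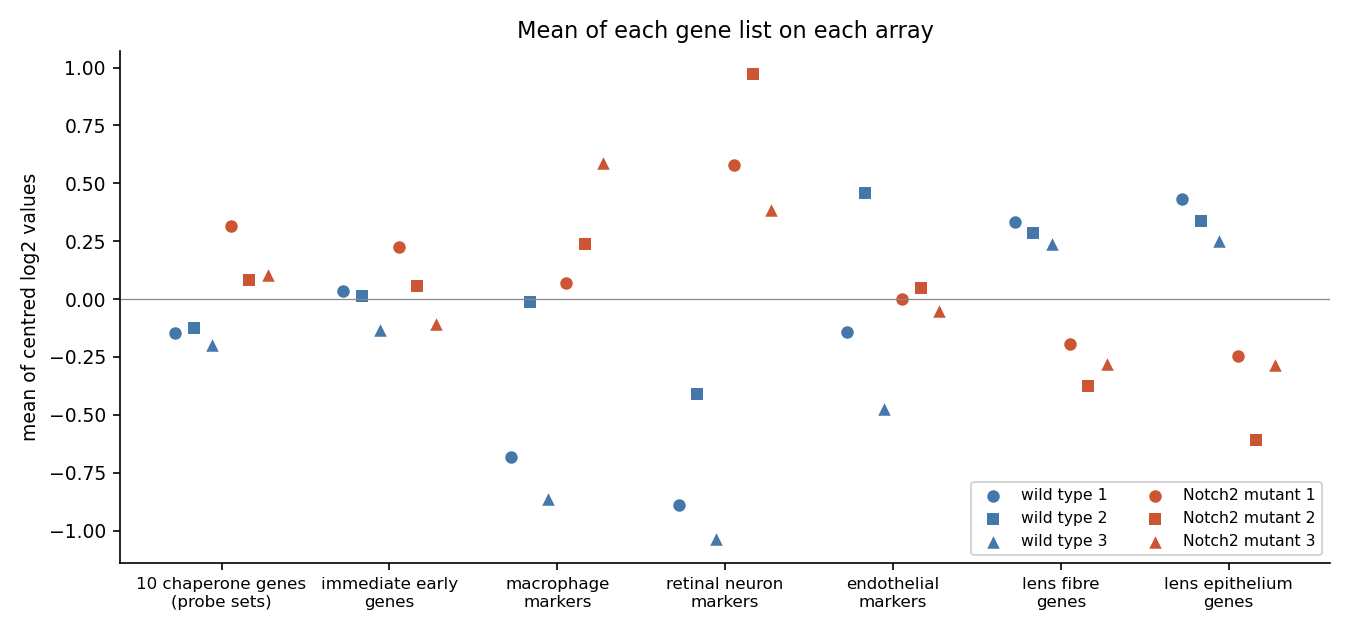
Each point is the mean of the centred log2 values of a list on 1 array, over the 24 probe sets for the 10 chaperone genes and over genes for the other lists. Mutant 1 is the highest array for the chaperones (0.32) and the immediate early genes (0.23), and mutant 2 for the retinal neuron markers (0.97).

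The profile of the 2 probe sets that rose, averaged on each of the 6 arrays, was compared with every other probe set of a single gene. The most alike by Pearson's r over the 6 arrays were Mmp2, a matrix metalloproteinase (r = 0.997), Notum, a Wnt antagonist (0.996), and Hmox1, the inducible heme oxygenase (0.995). All 3 had low values in every control and high ones in every mutant, as did the profile by which they were picked. Their differences were 0.90 (limma adjusted p = 0.0428), 0.76 (limma adjusted p = 0.0641) and 2.01 (limma adjusted p = 0.00334), so Notum did not pass. In all, 706 probe sets with a single gene symbol had r above 0.9, since 6 arrays in 2 groups leave few distinct profiles, so the value describes likeness only.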

How the data were processed

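Expression in lenses of 6 mouse embryos was measured on oligonucleotide arrays with biotin-labelled RNA. The deposited values come from RMA, per the submitters' processing notes, with no version. RMA subtracts background, equalises the distributions of the arrays and condenses each probe set to 1 value. No source states the base, and the deposited values are taken as log2, RMA's usual output. In the deposited table each probe set has a median of 0 over the 6 arrays, a centring that no source used here describes, and that leaves differences intact. The number of arrays limits the precision.

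Gene names come from the platform's annotation. Of 45037, 34945 had 1 gene symbol, 932 several and 9160 none. The 24 members had 1 symbol each. Differences were tested by lmFit and eBayes of limma 3.58.1 (R 4.3.3) without covariates, with Benjamini-Hochberg adjustment over all 45037 and a threshold of 0.05. The procedure was also tested on simulated data. These were drawn under the assumptions of limma's model, so they cannot show how it behaves with arrays of unequal spread. Counts of genes that rose or fell take a gene as called if any probe set passed. Members, lists and tests were chosen with earlier results of these data known. All probe sets of the 10 genes are shown in the figures, and some are described in the text only in part or by a range. In the lists of the wider chaperone network, genes that passed are named, and otherwise the 1 or 2 with the smallest p. Those with the smallest p are also named for the immediate early genes. The lists of retinal, macrophage, endothelial and lens markers are given as counts and means, without the names of genes that passed. Levels, and with them a filter on dim probe sets, cannot be had from centred values. Alternatives were other normalisations, variance models, array weights, filters, blocks and each array left out.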

Additional observations from a re-analysis of the deposited data

How the results depend on the processing

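The difference of each of the 24 chaperone probe sets was refitted under up to 14 alternatives. Of these values 307 kept their direction and their side of the threshold, 13 kept the direction and lost the call, and 5 changed sign. The 2 calls, Dnajb1 and Dnajb4, held after a further quantile normalisation, subtraction of array medians, a robust prior, array weights, the removal of _x_at and _s_at probe sets, and both blocks. With probe sets kept only where their standard deviation exceeds the median, 1 chaperone probe set and 1 gene passed, since Dnajb1 had an adjusted p = 0.0532. With any 1 array left out 0 of the 24 (and 0 genes) passed in limma, and 0 passed as lower under any alternative. Over all probe sets the count of 211 became 584 after quantile normalisation, 889 with array weights, 738 with the filter and 790 with the hybridisation control split as a block, and 7 (without mutant 2) to 155 (without wild type 2) with 1 array left out. The sign changes were in Hspa1a, at -0.027 to 0.51 with 1 array left out, and in Hspa1b 1452318_a_at, at -0.38 to 0.046 with 1 array left out and 0.013 with the hybridisation control split as a block. The cause was not tested.

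With the replicate number as a block (replicate block), 530 probe sets passed and both chaperone calls remained. The numbers share no stated source: deviations from the group means correlated at 0.33, -0.14 and 0.26 for the same-numbered arrays 1, 2 and 3, and not every array correlated best with its own number.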
